A study of Homo sapiens with 6 samples.

Results

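The respiratory chain passes electrons from NADH and succinate to oxygen through complexes I to IV of the inner mitochondrial membrane, and complex V uses the resulting proton gradient to make ATP. Its subunits come from separate genomes. Nuclear genes encode most of them, while the mitochondrial genome encodes a small set of membrane-bound core subunits, so complexes I, III, IV and V are each built from both. The genes described here are the nuclear genes whose symbols begin with NDUF (complex I, but for the complex IV genes NDUFA4 and NDUFA4L2), UQCR (complex III), COX and a number (complex IV) or ATP5 (complex V), with CYC1 and CYCS, and the 13 protein genes of the mitochondrial genome. Pseudogenes, antisense genes and divergent transcripts were left out (13 name matches). The rule took 109 of the 17211 genes in the deposited table, 96 of them nuclear and 13 mitochondrial, and all 109 passed the filter on low values. COX4I2, COX6A2, COX6B2, COX7A1, COX7B2, COX8C and ATP5MGL, which are mostly tissue-restricted isoforms, are not among the rows of the deposited table and were not analysed here.

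RNA was sequenced from CAOV2 cells, a human ovarian cancer line grown in culture with 10% serum, which the labels also call primary cancer cells. In 3 libraries the cells had received siRNA against TAZ (siTAZ), and in 3 they had received a non-targeting siRNA (siNT), with no other change of genotype or treatment named in the labels. Both groups share the transfection, which used 100 pmol of siRNA over 2 days, with collection on day 3. Poly(A) RNA was sequenced in bulk, and the labels call the libraries of a group biological replicates without saying whether they came from separate days or cultures. WWTR1 encodes TAZ, a Hippo pathway effector without a DNA-binding domain of its own that turns on genes with TEAD factors.

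Reads in genes numbered 28458503 to 34488196 in siTAZ and 25478595 to 28928432 in siNT. Levels are deposited values, which are reads divided by a size factor per library. WWTR1 (ENSG00000018408) had 242, 277 and 279.7 in siTAZ, against 4359, 4217 and 4258 in siNT (log2 fold change -4.0 with SE 0.06, limma adjusted p = 8.0e-17), so the targeted transcript was low in all 3 siTAZ libraries and the groups were far apart. Of the epithelial markers, 8 of 9 were in the deposited table, and their summed level was 92366 to 100618 in siTAZ and 96359 to 104805 in siNT. The sums overlapped, but 4 of these markers rose and 2 fell. EPCAM averaged 1361 ± 42.0 in siTAZ and 501 ± 10.3 in siNT (SD, n = 3 each) and CDH1, the epithelial cadherin, 579 ± 15.0 in siTAZ and 256 ± 15.6 in siNT, and both rose (log2 fold change 1.44 and 1.18, limma adjusted p = 5.5e-12 and 1.4e-09). The keratin KRT7 averaged 8604 ± 879 in siTAZ and 22847 ± 1266 in siNT and fell (log2 fold change -1.41, limma adjusted p = 1.2e-11). KRT19 (0.67) and KRT8 (0.16) rose and KRT18 (-0.30) fell, while WT1 was not in the deposited table, and the Müllerian marker PAX8 was low, at 20.8, 19.3 and 14.5 in siTAZ, against 20.9, 44.9 and 20.5 in siNT. Of 8 fibroblast markers, 6 were in the deposited table, with a summed level of 6614 to 7502 in siTAZ and 5609 to 6399 in siNT, mostly from LUM, COL3A1 and PDGFRA. Every siTAZ sum lay above every siNT sum. COL3A1 (log2 fold change 1.09), PDGFRA (0.44) and the scarce PDGFRB (1.76) rose, and the scarce COL1A2 fell (-2.71). COL1A1 and LUM did not pass the test. Leukocyte markers (2 of 7 in the deposited table) summed to 159 to 172 in siTAZ and 114 to 126 in siNT, again without overlap. CD14 rose (log2 fold change 0.89) and CD68 did not pass the test (-0.15). None of 5 endothelial markers was in the deposited table. The part of these markers in the results was not tested. In bulk RNA, fewer cells of a type and less RNA per cell cannot be told apart.

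Nuclear genes of the respiratory chain fell more often than they rose after TAZ silencing, by small amounts. Among the 96, 45 fell and 7 rose at an adjusted p under 0.05 in limma, and 44 did not pass the test. These counts stand against a high background: of all 17204 genes tested, 55.8% changed, 27.5% as lower and 28.3% as higher in siTAZ. The shares of the nuclear respiratory genes were 46.9% lower and 7.29% higher. Because most of these genes are abundant, genes with a mean of at least 1000 are the closer comparison, and of those 6343 genes 38.4% were lower and 30.0% higher. Among the 75 nuclear respiratory genes at that level, 40 (53.3%) were lower and 5 (6.67%) higher. The median log2 fold change of the 96 was -0.14, against -0.0013 over all genes tested and -0.04 over the abundant ones, and single values ran from -0.88 to 0.38. In 47 of the 96, all siTAZ libraries lay below all siNT libraries, and in 9 they lay above, where the same held for 30.3% and 31.1% of all genes tested. At a mean of at least 1000 these counts were 39 and 6 of the 75, against 2537 and 2001 of the 6343 genes. None of the 109 genes changed 2-fold, a size reached by 11.5% of all genes tested. Changes that large were rarer among abundant genes, at 163 of the 6343, and 88 of the 109 are abundant by that measure.

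**Figure D1:**
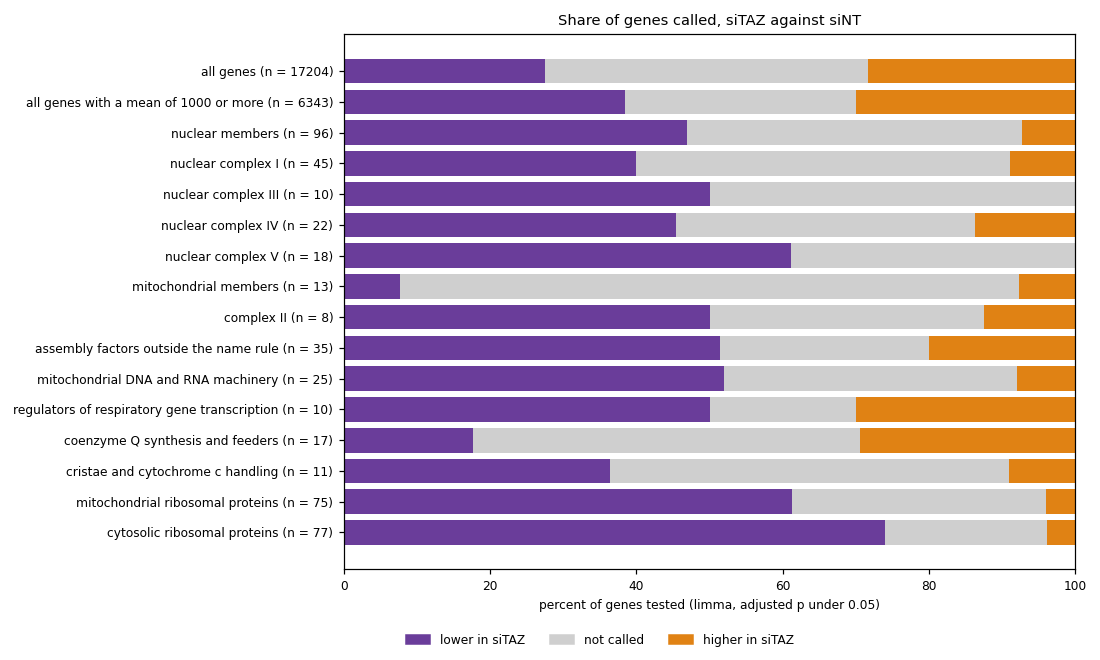
Percent of the genes tested that were lower (purple), not called (grey) or higher (orange) in siTAZ against siNT, by limma at an adjusted p under 0.05, for all genes, the respiratory chain genes by complex, and related lists. The 96 nuclear genes had 46.9% lower and 7.29% higher, the 18 complex V genes 61.1% lower and none higher, and the 13 mitochondrial genes 1 in each direction.

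Most of the falls held under every alternative tried. Of the 45 nuclear falls, 34 were called in each of 17 alternative settings, and none of the 45 changed sign in any. The rises were fewer and less stable, with 3 of 7, COX10, NDUFB2 and NDUFB5, called in all 17. The count of rises was 4 without siTAZ replicate 2 and 4 without siNT replicate 3. It was 12 when libraries were scaled by their total counts and 13 when mitochondrial genes were left out of those totals, where the falls numbered 35 and 34.

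Nuclear respiratory genes often carry sites for NRF1, ETS factors such as GABPA, and YY1 close to their start sites. RefSeq promoter windows (GRCh38.p14, 250 bases before the start and 50 after) were matched for 80 of the 96 genes by symbol and searched on both strands for an ETS and a TEAD motif, with overlaps between motifs allowed. NRF1 and YY1 motifs are not reported here. The ETS motif CCGGAAG was in 22 of 80 windows (27.5%), against 18.1% of 11803 windows of genes tested and 10.7% of 27305 windows in all. The TEAD motif ACATTCC was in 0 of 80, against 2.28% of the windows of genes tested. With so low a background, 80 windows are too few to tell 0 from it, and sites outside the windows were not searched. The ETS motif was in 13 of the 41 windows of genes that fell, 1 of the 6 of genes that rose and 8 of the 33 of genes not called. A match is only a match of letters, and no binding was measured.

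Of the genes with an ETS match before the start site, the windows of the 3 with the largest falls and of the 1 that rose are shown to set members that moved in opposite directions side by side. COX8A and COX6B1 encode complex IV subunits and NDUFAF4 a complex I assembly factor, all lower in siTAZ, while COX10 encodes a complex IV assembly factor that was higher. They lie at chr11:63974370-63974619, plus strand (COX8A), chr6:96897892-96898141, minus strand (NDUFAF4), chr19:35648073-35648322, plus strand (COX6B1) and chr17:14069254-14069503, plus strand (COX10). Each line gives the 250 bases before the start site, 5′ to 3′ on the gene's strand, with ETS matches in capitals. Matches in the 50 bases after the start are not shown.
COX8A: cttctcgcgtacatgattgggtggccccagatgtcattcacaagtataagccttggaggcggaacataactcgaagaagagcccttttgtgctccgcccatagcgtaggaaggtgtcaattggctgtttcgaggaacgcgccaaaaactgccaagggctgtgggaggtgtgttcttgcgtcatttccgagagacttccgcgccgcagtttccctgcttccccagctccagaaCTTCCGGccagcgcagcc
NDUFAF4: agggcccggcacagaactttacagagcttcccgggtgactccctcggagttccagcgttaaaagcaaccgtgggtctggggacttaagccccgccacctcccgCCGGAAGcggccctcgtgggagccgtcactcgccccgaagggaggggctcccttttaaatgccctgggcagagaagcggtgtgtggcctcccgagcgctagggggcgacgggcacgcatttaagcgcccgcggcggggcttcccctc
COX6B1: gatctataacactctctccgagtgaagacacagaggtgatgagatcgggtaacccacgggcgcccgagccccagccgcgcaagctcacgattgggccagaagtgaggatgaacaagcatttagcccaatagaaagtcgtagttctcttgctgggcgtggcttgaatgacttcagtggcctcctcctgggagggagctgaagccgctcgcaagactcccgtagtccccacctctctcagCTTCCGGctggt
COX10: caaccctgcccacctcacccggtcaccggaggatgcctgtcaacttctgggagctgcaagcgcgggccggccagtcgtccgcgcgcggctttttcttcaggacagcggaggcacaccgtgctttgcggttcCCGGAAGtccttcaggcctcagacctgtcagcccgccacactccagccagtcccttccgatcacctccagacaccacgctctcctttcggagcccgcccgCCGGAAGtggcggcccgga
The capitals mark 1 ETS match each in COX8A, NDUFAF4 and COX6B1 and a pair in COX10. The windows were chosen for an ETS match and for both directions of change, so finding the motif on both sides follows from that choice.

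Complex I oxidises NADH, and 45 of its nuclear genes were measured, of which 18 (40%) fell, 4 (8.89%) rose and 23 did not pass the test. The share of falls was close to the 38.4% of genes with a mean of at least 1000, and that of rises was below their 30.0%. Of the 45 genes, 31 had such a mean, and over all genes tested 27.5% were lower and 28.3% higher. The catalytic core of complex I is made of 7 nuclear subunits that carry the flavin and the iron-sulfur clusters, and 2 (28.6%) of these fell. NDUFS3, in the peripheral arm, had 2975, 2905 and 2796 in siTAZ, against 3199, 3423 and 3168 in siNT (log2 fold change -0.17 with SE 0.05, limma adjusted p = 0.0068), and its groups did not overlap. Its call was lost when libraries were scaled by totals without mitochondrial genes (limma adjusted p = 0.0510). NDUFV1, which binds NADH and flavin, had 8114, 7486 and 7578 in siTAZ, against 7987, 8589.6 and 8696 in siNT (log2 fold change -0.12 with SE 0.05, limma adjusted p = 0.040). Here siTAZ replicate 1 lay above the lowest siNT library, and the call rested on the samples: limma adjusted p was 0.16 without siTAZ replicate 2, 0.13 without siTAZ replicate 3, 0.13 without siNT replicate 2 and 0.17 without siNT replicate 3. It was also lost under total count scaling (0.20) and quantile normalization (0.16).

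The core subunits NDUFS1, NDUFS7, NDUFS8 and NDUFV2 did not pass the test. NDUFS1, the largest iron-sulfur subunit of the input arm, had 3323, 3552 and 3365 in siTAZ, against 3356, 3244 and 3257 in siNT, which overlapped. NDUFS7, which holds the terminal iron-sulfur cluster, had log2 fold change -0.11 and NDUFS8, next to it, -0.10, with overlapping groups. Without siTAZ replicate 1 both passed as lower (limma adjusted p = 0.032 for NDUFS7 and 0.012 for NDUFS8), and NDUFS7 also without siNT replicate 1 (0.011). NDUFV2, the iron-sulfur partner of NDUFV1, was listed with very few reads, at 12.5, 7.34 and 11.1 in siTAZ, against 15.7, 15.0 and 15.7 in siNT, while its pseudogene NDUFV2P1 had 99.7, 78.0 and 82.7 in siTAZ, against 74.3, 97.3 and 89.4 in siNT. How reads were split between such near-identical copies is not known, so the level of NDUFV2 is uncertain. The same holds for UQCRHL, an intronless relative of UQCRH, at 25.3 ± 2.62 in siTAZ and 25.2 ± 4.56 in siNT (SD, n = 3 each).

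Around the core sit accessory subunits, of which 30 were measured, with 12 falls and 4 rises. NDUFA6 (ENSG00000184983, chromosome 22), an accessory subunit of the LYR protein family, had 1682, 1601 and 1669 in siTAZ, against 2320.4, 2360.1 and 2229.5 in siNT (log2 fold change -0.48 with SE 0.05, limma adjusted p = 4.3e-07). Its siTAZ libraries were close together and far below every siNT library. NDUFB10 (ENSG00000140990, chromosome 16), in the membrane arm, had 2431, 2308 and 2257 in siTAZ, against 3013, 3276 and 3237 in siNT (log2 fold change -0.44 with SE 0.05, limma adjusted p = 1.4e-06), and NDUFB3, also in the membrane arm, had 1243, 1242 and 1318 in siTAZ, against 1654, 1694 and 1606 in siNT (log2 fold change -0.38 with SE 0.05, limma adjusted p = 1.2e-05). Neither gene's groups overlapped. All 4 rises of complex I were in accessory subunits, 3 of them in the NDUFB series. Among the 11 genes of that series, 5 (45.5%) fell and 3 (27.3%) rose. Of genes with a mean of at least 1000, 38.4% were lower and 30.0% higher, so the series rose at close to the background share. NDUFB2 (ENSG00000090266, chromosome 7) had 3638, 3181 and 3128 in siTAZ, against 2360.2, 2604 and 2650.1 in siNT (log2 fold change 0.38 with SE 0.06, limma adjusted p = 5.3e-05), the largest rise of the 96 nuclear genes. Its antisense gene NDUFB2-AS1 was scarce, at 56.6 ± 2.42 in siTAZ and 66.4 ± 8.32 in siNT (SD, n = 3 each), and since it is not given whether counting used strand, reads of the pair cannot be told apart.

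NDUFB5 had 1806, 1795 and 1958 in siTAZ, against 1646, 1551 and 1527 in siNT (log2 fold change 0.23 with SE 0.06, limma adjusted p = 0.0017) and NDUFB8 had 977, 955 and 941 in siTAZ, against 884, 812 and 807 in siNT (log2 fold change 0.20 with SE 0.06, limma adjusted p = 0.010), with every siTAZ library above every siNT library in both membrane-arm genes. The call of NDUFB8 was lost without siNT replicate 3 (limma adjusted p = 0.0517). NDUFA10, a subunit of the membrane arm with a nucleoside kinase fold, had 5656, 5495 and 5594 in siTAZ, against 5178, 4916 and 5282 in siNT (log2 fold change 0.12 with SE 0.05, limma adjusted p = 0.029). That small rise was lost without siTAZ replicate 2 (0.056), without siTAZ replicate 3 (0.081) and without siNT replicate 2 (limma adjusted p = 0.15). NDUFA7 was listed with too few reads for a direction, at 21.5 ± 2.57 in siTAZ and 21.9 ± 4.05 in siNT (SD, n = 3 each).

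Assembly factors put complex I together and are not part of the finished enzyme. Of the 8 NDUFAF genes, 4 fell and none rose. NDUFAF8, which stabilises NDUFAF5, had 829, 717 and 772 in siTAZ, against 1031, 1162 and 1242 in siNT (log2 fold change -0.57 with SE 0.07, limma adjusted p = 5.5e-06), and NDUFAF5 itself had log2 fold change -0.09, which did not pass the test. NDUFAF2, a chaperone of the last assembly steps, had 311, 324 and 344 in siTAZ, against 419, 388 and 464 in siNT (log2 fold change -0.37 with SE 0.08, limma adjusted p = 0.0012). NDUFAF4 (-0.35) and NDUFAF6 (-0.22) fell as well. In all 4 the siTAZ libraries lay below the siNT libraries, which held for 30.3% of all genes tested.

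**Figure D2:**
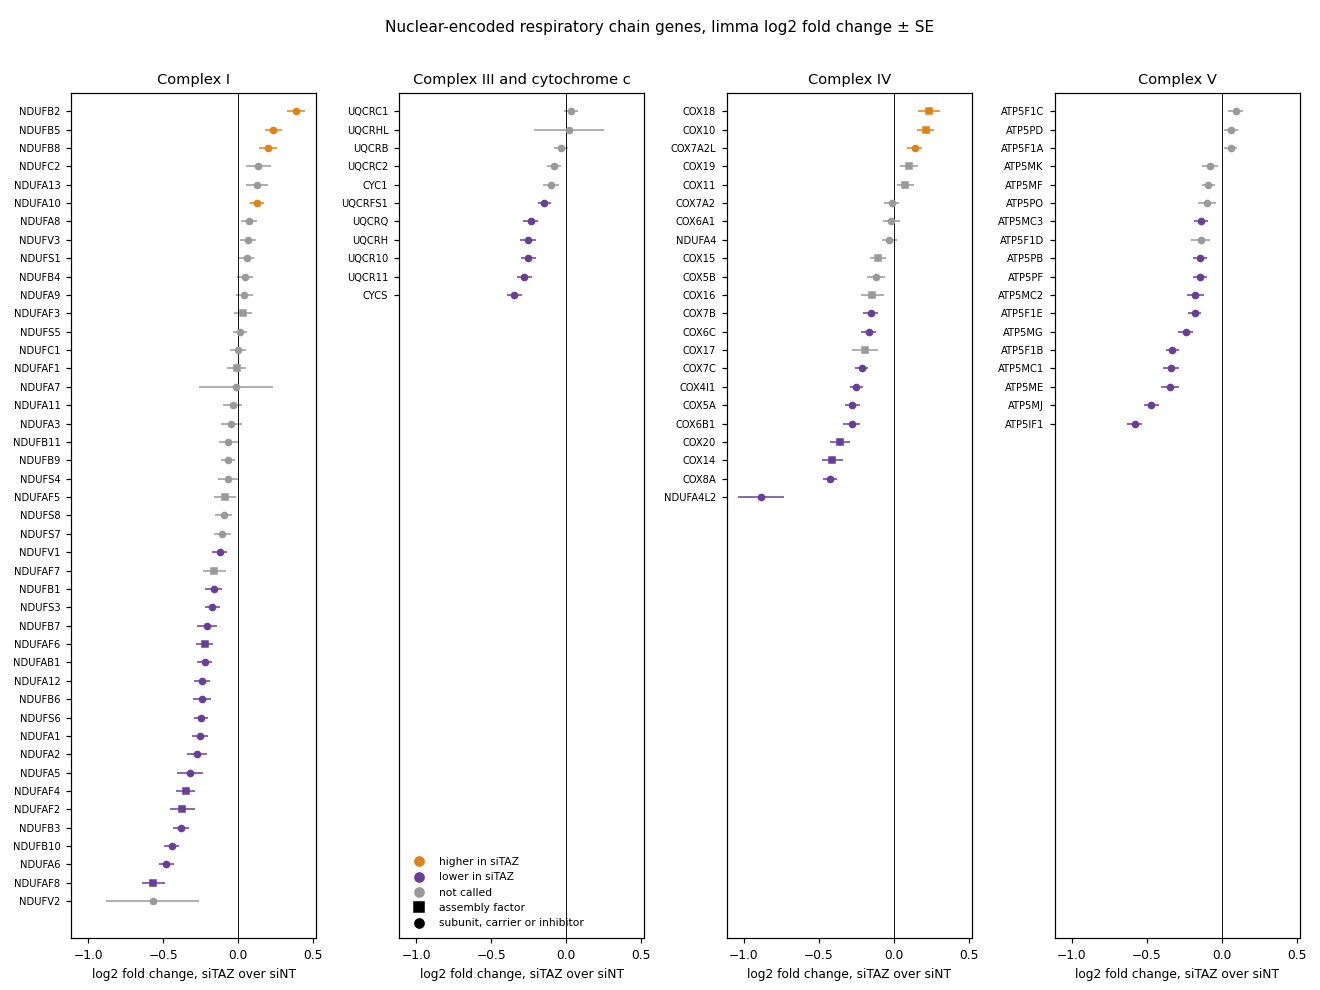
Log2 fold change (siTAZ over siNT, x axis) with its SE for the nuclear genes (1 of the 96 is not drawn), by complex and sorted within it, from the limma fit. Squares are assembly factors, purple is lower, orange higher and grey not called. Complex III with cytochrome c and complex V hold no orange point, and the widest bars belong to NDUFV2, NDUFA7, UQCRHL and NDUFA4L2, which were listed with few reads.

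Complex III hands electrons from ubiquinol to cytochrome c. Of its 10 nuclear genes 5 fell and none rose. A mean of at least 1000 was reached by 9 of the 10. Of all genes at that level, 38.4% were lower and 30.0% higher, and the difference from these shares was not tested. UQCRFS1, the Rieske iron-sulfur protein, had 2722, 2728 and 2747 in siTAZ, against 2996, 3066 and 2998 in siNT (log2 fold change -0.14 with SE 0.05, limma adjusted p = 0.013). Its values were tight and did not overlap, but the call was lost under total count scaling (0.095, or 0.10 without mitochondrial genes) and without siNT replicate 2 (limma adjusted p = 0.0520). CYC1, cytochrome c1, had 11832, 10555 and 10493 in siTAZ, against 11018, 12107 and 12146 in siNT. Its groups overlapped and it did not pass the test (log2 fold change -0.10 with SE 0.05, limma adjusted p = 0.12), though it passed as lower without siTAZ replicate 1 (limma adjusted p = 0.0079) or siNT replicate 1 (0.027). The other 4 falls were the small subunits UQCR11 (-0.28), UQCR10 (-0.25), UQCRH (-0.25) and UQCRQ (-0.24), all with non-overlapping groups. The large core proteins UQCRC1 (0.03) and UQCRC2 (-0.08) did not pass the test.

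CYCS (ENSG00000172115, chromosome 7) encodes cytochrome c, the soluble carrier between complexes III and IV that also triggers apoptosome assembly when released. It had 6797, 7618 and 7237 in siTAZ, against 9520.5, 8796 and 9177 in siNT (log2 fold change -0.35 with SE 0.05, limma adjusted p = 1.8e-05). Every siTAZ library was below every siNT library.

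Complex IV reduces oxygen to water. Of its 22 nuclear genes 10 (45.5%) fell and 3 (13.6%) rose, against 38.4% and 30.0% of genes with a mean of at least 1000. By role, 7 (63.6%) of 11 structural subunits fell and none rose, and the 9 assembly factors held 2 falls and 2 rises. COX4I1 (ENSG00000131143, chromosome 16), the largest nuclear subunit, had 11654, 10973 and 11157 in siTAZ, against 13217, 13438 and 13510.1 in siNT (log2 fold change -0.25 with SE 0.04, limma adjusted p = 1.1e-04). COX5A, its neighbour in the complex, had 4985, 4553 and 4716 in siTAZ, against 5589.6, 5954 and 5733 in siNT (log2 fold change -0.28 with SE 0.05, limma adjusted p = 1.1e-04), and neither overlapped. COX5B, which binds zinc, had 5386, 4604 and 4792 in siTAZ, against 4954, 5710.0 and 5371 in siNT. It overlapped and did not pass the test (limma adjusted p = 0.11), except without siTAZ replicate 1 (0.0052) or siNT replicate 1 (0.021). COX8A (ENSG00000176340, chromosome 11), a small membrane subunit, had the largest structural fall at 4359, 4130.3 and 4266 in siTAZ, against 5540.4, 5797 and 5804 in siNT (log2 fold change -0.43 with SE 0.05, limma adjusted p = 5.2e-07).

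Several complex IV subunits have tissue-specific or stress-related partners. NDUFA4L2 (ENSG00000185633, chromosome 12), a hypoxia-inducible relative of NDUFA4, had the largest fall of the 96 nuclear genes, at 59.2, 58.7 and 49.5 in siTAZ, against 86.9, 109 and 117 in siNT (log2 fold change -0.88 with SE 0.15, limma adjusted p = 1.2e-04), with no overlap. Its level was low, whereas NDUFA4, the subunit itself, had 4219.6 ± 179 in siTAZ and 4307 ± 156 in siNT (SD, n = 3 each) and did not pass the test. Of the isoforms found in most tissues, COX6B1 fell (5499 ± 486 in siTAZ and 6673 ± 315 in siNT, SD, n = 3 each, log2 fold change -0.28), while COX6A1 (-0.02) and COX7A2 (-0.01) did not pass the test. COX7A2L, which joins complexes III and IV into supercomplexes, had 2682, 2819.6 and 2903 in siTAZ, against 2654, 2505 and 2474 in siNT (log2 fold change 0.14 with SE 0.05, limma adjusted p = 0.029). That rise was lost without siTAZ replicate 2 (limma adjusted p = 0.089), siTAZ replicate 3 (0.13), siNT replicate 2 (0.090) or siNT replicate 3 (0.12).

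Among the 9 complex IV assembly factors, 22.2% fell and 22.2% rose, below the 27.5% and 28.3% of all genes tested. COX14, needed for making MT-CO1, had 556, 498 and 501 in siTAZ, against 666, 684 and 718 in siNT (log2 fold change -0.41 with SE 0.07, limma adjusted p = 8.6e-05). COX20, a chaperone of MT-CO2, had 872, 999 and 1017 in siTAZ, against 1306, 1166 and 1224 in siNT (log2 fold change -0.36). Both were lower in every siTAZ library. The rises were in other factors. COX10, which makes heme O, had 1274, 1175 and 1259 in siTAZ, against 1037, 1071 and 1089 in siNT (log2 fold change 0.21 with SE 0.06, limma adjusted p = 0.0043). COX18, which helps insert MT-CO2 into the membrane, had 599.5, 628 and 583 in siTAZ, against 494, 554 and 493 in siNT (log2 fold change 0.23 with SE 0.07, limma adjusted p = 0.010). COX18 lost its call under quantile normalization (limma adjusted p = 0.059), without siTAZ replicate 2 (0.058) and without siNT replicate 3 (0.0503).

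**Figure D3:**
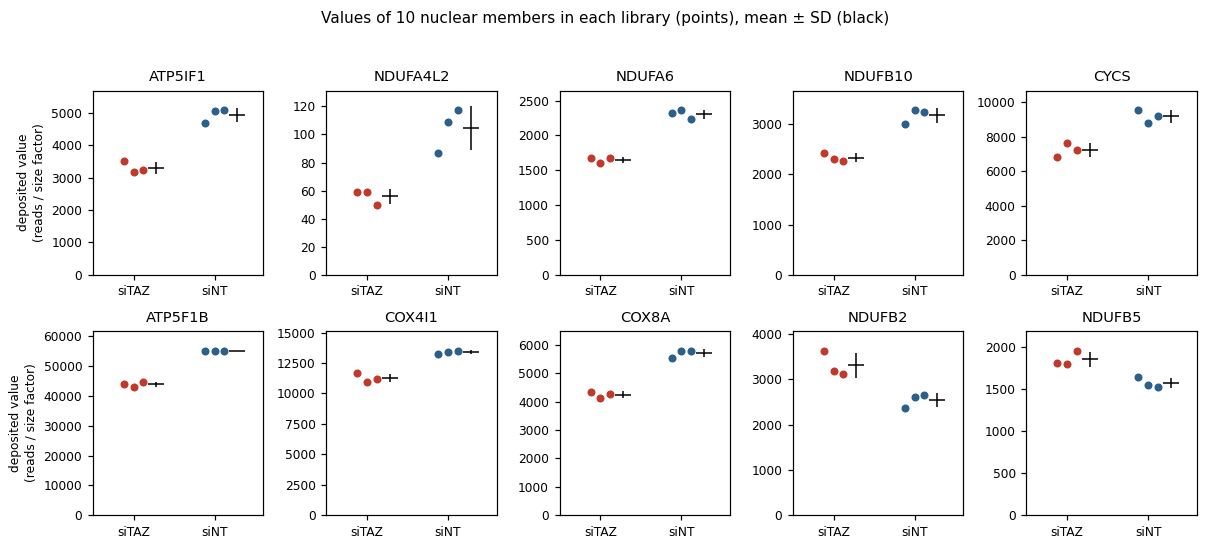
Deposited values (reads divided by size factor, y axis from 0) of 10 nuclear genes in each siTAZ library (red, left) and siNT library (blue, right), with the mean and SD in black. The first 8 genes have all siTAZ points below all siNT points, and NDUFB2 and NDUFB5 have all siTAZ points above.

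Complex V is the ATP synthase, and 11 (61.1%) of its 18 nuclear genes fell and none rose. Among genes with a mean of at least 1000, 38.4% were lower and 30.0% higher. The count of complex V calls was 7 without siTAZ replicate 2. ATP5IF1 (ENSG00000130770, chromosome 1), the inhibitor that stops the enzyme from running backwards and consuming ATP, had 3519, 3187 and 3226 in siTAZ, against 4708, 5058 and 5089 in siNT (log2 fold change -0.58 with SE 0.05, limma adjusted p = 6.2e-08). It was the second largest fall of the 96, with a wide gap between the groups. The catalytic head alternates alpha and beta subunits. ATP5F1B (ENSG00000110955, chromosome 12), the beta subunit, had 44010.1, 43012 and 44530.1 in siTAZ, against 54947, 55188 and 55077 in siNT (log2 fold change -0.33 with SE 0.04, limma adjusted p = 6.9e-06). ATP5F1A, its alpha partner, had 18039.6, 18040.0 and 18749.9 in siTAZ, against 18059.8, 17233 and 17296 in siNT (log2 fold change 0.06 with SE 0.04, limma adjusted p = 0.26), with overlapping groups and no call. The beta subunit thus passed the test and the alpha subunit did not, and the difference between them was not tested. ATP5F1A was called as higher under total count scaling (limma adjusted p = 0.031, or 0.026 without mitochondrial genes) and quantile normalization (0.0095), and ATP5F1B remained lower in all 17 settings.

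The proton-driven ring of complex V is made of c subunits from the paralogous genes ATP5MC1, ATP5MC2 and ATP5MC3, whose mature proteins are the same. ATP5MC1 had 1844, 1689.7 and 1707 in siTAZ, against 2135, 2189 and 2292 in siNT (log2 fold change -0.34 with SE 0.05, limma adjusted p = 4.7e-05). ATP5MC2 had 7039, 6300.0 and 6202 in siTAZ, against 6962, 7628 and 7452 in siNT (log2 fold change -0.17 with SE 0.05, limma adjusted p = 0.011), where siTAZ replicate 1 lay inside the siNT range. ATP5MC3 had 8779.8, 8039 and 8491 in siTAZ, against 9081, 9483 and 9319 in siNT (log2 fold change -0.14 with SE 0.05, limma adjusted p = 0.016). ATP5MC1 was the only gene of the c subunits called in all 17 settings. The call of ATP5MC2 was lost under total count scaling (limma adjusted p = 0.058), without siTAZ replicate 2 (0.057), without siTAZ replicate 3 (0.068) and without siNT replicate 2 (0.064). That of ATP5MC3 was lost under total count scaling (limma adjusted p = 0.10), quantile normalization (0.10), without siTAZ replicate 2 (0.11), without siNT replicate 2 (0.071) and without siNT replicate 3 (0.056). Among the membrane subunits, ATP5MJ had 1802, 1871 and 1907 in siTAZ, against 2658, 2576 and 2497 in siNT (log2 fold change -0.47 with SE 0.05, limma adjusted p = 5.1e-07) and ATP5ME had 1872, 1681 and 1659 in siTAZ, against 2108, 2321 and 2192 in siNT (log2 fold change -0.35).

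Most of the mitochondrially encoded genes did not pass the test. Of the 13, 1 (7.69%) fell, 1 (7.69%) rose and 11 did not pass the test. Among genes with a mean of at least 1000, 38.4% were lower and 30.0% higher. The median coefficient of variation of the 13 was above that of the nuclear genes, at 10.6% against 4.2% in siTAZ and 9.60% against 3.93% in siNT. The part of that spread in the count of calls was not tested. The median log2 fold change of the 13 was 0.03. The sign of that median was not stable: it was -0.05 without siTAZ replicate 2, -0.02 without siNT replicate 2 and -0.01 without siNT replicate 3. Together these genes took 2.00%, 2.46% and 2.06% of the reads in siTAZ, against 2.22%, 1.84% and 1.96% in siNT, so the groups overlapped. The 96 nuclear genes together took 1.18%, 1.14% and 1.16% in siTAZ, against 1.24%, 1.26% and 1.24% in siNT, with no overlap. The difference between the nuclear and mitochondrial genes was not tested.

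MT-ND6 (ENSG00000198695, chromosome M), a complex I subunit and the only protein gene encoded on the light strand of the mitochondrial genome, was the gene that fell. It had 4877, 5807 and 4679.8 in siTAZ, against 7405, 6614 and 7255 in siNT (log2 fold change -0.47 with SE 0.07, limma adjusted p = 1.5e-05), with no overlap, and was called in all 17 alternatives (limma adjusted p 5.7e-10 to 2.2e-04). MT-ND6 messages are known to lack a long poly(A) tail, and the libraries were poly(A)-selected (the part of poly(A) capture in its level was not tested). Its neighbours are read from the other strand, and since it is not given whether counting used strand, reads from the strands over this gene cannot be told apart. MT-CO1 (ENSG00000198804, chromosome M), the heme and copper subunit where oxygen is reduced, was the gene that rose. It had 87589, 107301 and 89512 in siTAZ, against 87164, 72335 and 77075 in siNT (log2 fold change 0.26 with SE 0.08, limma adjusted p = 0.0066), so the lowest siTAZ value and the highest siNT value were nearly equal. The call was lost with DESeq2 on the recovered reads (adjusted p = 0.063) and without siNT replicate 2 (limma adjusted p = 0.0542), over a range of 3.9e-04 to 0.063.

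The other complex I subunits of the mitochondrial genome form the proton-pumping membrane arm. MT-ND1 had 48583, 57511 and 47681 in siTAZ, against 59530.3, 50643 and 56037 in siNT, with siTAZ replicate 2 inside the siNT range. MT-ND2 had 31814, 37173 and 32707 in siTAZ, against 39887, 32377 and 35293 in siNT and MT-ND3 had 8351, 8862 and 8572 in siTAZ, against 10329.9, 8511 and 9213 in siNT, both overlapping. Without siTAZ replicate 2, MT-ND1 passed as lower (limma adjusted p = 0.015), and without siNT replicate 2, MT-ND3 did (0.018). MT-ND4 had 128288, 162587 and 135981 in siTAZ, against 149079, 120576 and 133674 in siNT, and MT-ND4L, whose message overlaps it, had 14499, 16416 and 14217 in siTAZ, against 16571, 13774 and 13986 in siNT. MT-ND4 was called higher under quantile normalization alone of the 17 settings (limma adjusted p = 3.0e-05). MT-ND5 had 47704, 59490.3 and 49339 in siTAZ, against 50858, 42336 and 47639 in siNT (log2 fold change 0.15, limma adjusted p = 0.10). It passed as higher under total count scaling (0.035, or 0.036 without mitochondrial genes), under quantile normalization (0.0059), without siTAZ replicate 1 (0.012) and without siNT replicate 1 (limma adjusted p = 0.022).

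MT-CYB, cytochrome b of complex III, had 41291, 50052 and 39617 in siTAZ, against 49831, 40876 and 46118 in siNT, which overlapped. In complex IV, MT-CO2, which takes electrons from cytochrome c, had 51421, 63238 and 55510.2 in siTAZ, against 60595, 52540.5 and 52823 in siNT and MT-CO3 had 76876, 89710.0 and 76451 in siTAZ, against 82131, 74088 and 75165 in siNT. Both overlapped, and MT-CO2 passed as higher under quantile normalization alone of the 17 settings (limma adjusted p = 0.022). In complex V, MT-ATP6, the proton channel, had 39244, 49401 and 41141 in siTAZ, against 45000.4, 36242 and 38022 in siNT, and MT-ATP8, whose reading frame overlaps it, had 11763, 12869.9 and 10908 in siTAZ, against 12749.8, 11900.0 and 11423 in siNT. MT-ATP6 passed as higher under quantile normalization (0.026), without siTAZ replicate 1 (0.031) and without siNT replicate 1 (limma adjusted p = 0.015). Nuclear copies share sequence with these genes, and the largest in the deposited table, MTATP6P1, had 3368 ± 497 in siTAZ and 2983 ± 335 in siNT (SD, n = 3 each) (how such reads were assigned is not known).

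Much of the spread in the mitochondrial genes was shared between them within a group. All 13 were highest in siTAZ replicate 2 among the siTAZ libraries, and all 13 were highest in siNT replicate 1 among the siNT libraries. Their median deviation from the siNT mean, in log2, was -0.06, 0.16 and -0.05 in siTAZ replicates 1, 2 and 3, against 0.13, -0.13 and -0.02 in siNT replicates 1, 2 and 3. For the 96 nuclear genes the same medians were -0.10, -0.17 and -0.15 in siTAZ, against -0.01, 0.02 and 0.0034 in siNT. The median coefficient of variation was 10.6% in siTAZ and 9.60% in siNT for the mitochondrial genes, and 4.2% in siTAZ and 3.93% in siNT for the nuclear ones. The median SE of the log2 fold change was 0.07 for the mitochondrial genes and 0.05 for the nuclear ones.

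**Figure D4:**
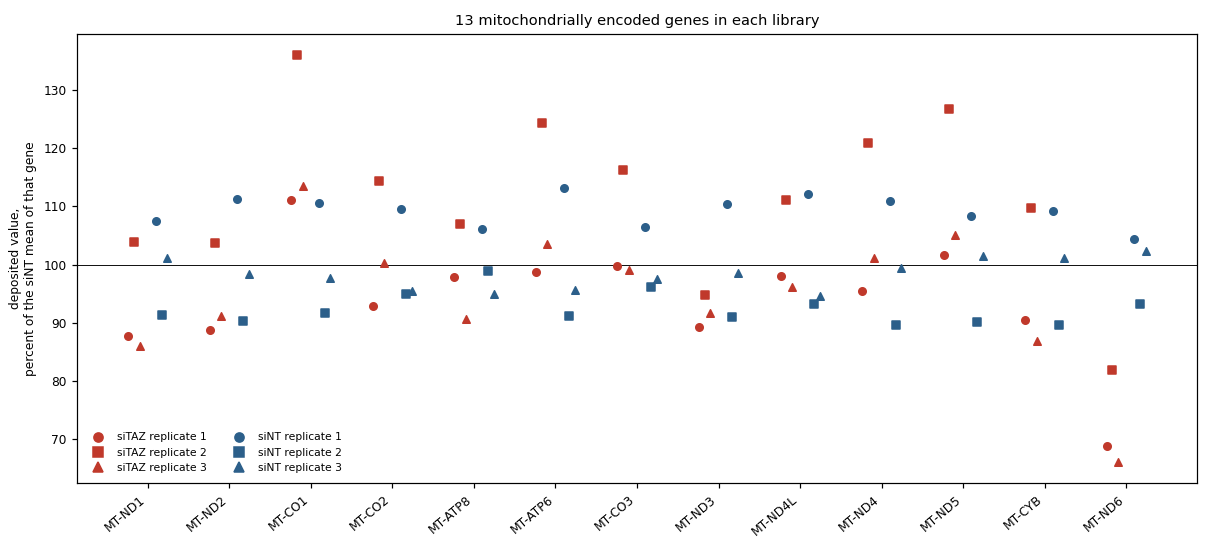
Deposited value of each of the 13 mitochondrial genes in each library, as percent of that gene's siNT mean (y axis, not starting at 0), with siTAZ in red to the left of siNT in blue and a marker shape per replicate. The red squares (siTAZ replicate 2) and blue circles (siNT replicate 1) are the highest of their group for each gene, and MT-ND6 has all siTAZ points below all siNT points.

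Of the ribosomal RNAs of the mitochondrial genome, 1 passed the test and 1 did not. MT-RNR1 had 30542, 40822 and 36801 in siTAZ, against 24330.0, 22093 and 36286 in siNT (log2 fold change 0.41 with SE 0.13, limma adjusted p = 0.013), with overlapping groups, and its call was lost with DESeq2 (adjusted p = 0.21), without siTAZ replicate 2 (limma adjusted p = 0.063) and without siNT replicate 2 (0.10). MT-RNR2 had 339484 ± 39974 in siTAZ and 306742 ± 25540.0 in siNT (SD, n = 3 each) and did not pass the test.

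Per kilobase of median transcript length, each mitochondrial message except MT-ND6 stood above every nuclear one except ATP5F1B in level. MT-CO3 averaged 103332 per kb in siTAZ and 98377 per kb in siNT, and MT-ND4 averaged 103255 per kb in siTAZ and 97564 per kb in siNT. ATP5F1B, the highest nuclear gene on this scale, averaged 53871 per kb in siTAZ and 67655 per kb in siNT. ATP5F1A and COX4I1 came next among the nuclear genes, with no fixed order between them. ATP5F1A averaged 23386 per kb in siTAZ and 22431 per kb in siNT, and COX4I1 averaged 18942 per kb in siTAZ and 22520.4 per kb in siNT. MT-ND6 was the lowest of the mitochondrial genes, at 9755 per kb in siTAZ and 13508 per kb in siNT.

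Complex II, succinate dehydrogenase, is encoded wholly in the nucleus and its names fall outside the rule above. Of its 8 genes for subunits and assembly factors, 4 (50%) fell and 1 (12.5%) rose, with a median log2 fold change of -0.12. For this and the lists that follow, 27.5% of all genes tested were lower and 28.3% higher. Among genes with a mean of at least 1000, the closer comparison for abundant lists, 38.4% were lower and 30.0% higher. SDHB, the iron-sulfur subunit, fell, with 2857 ± 138 in siTAZ and 3647 ± 77.7 in siNT (SD, n = 3 each, log2 fold change -0.35 with SE 0.05, limma adjusted p = 1.2e-05). The assembly factors SDHAF3 (-0.87) and SDHAF1 (-0.65), which help SDHB mature, fell further. SDHA, the flavoprotein, did not pass the test (log2 fold change 0.00).

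Many assembly factors have names outside the rule. Of 35 listed, 18 (51.4%) fell and 7 (20.0%) rose, with a median log2 fold change of -0.24 (the difference from the 96 nuclear genes was not tested). SCO1, which delivers copper to complex IV, had 1028, 1089 and 1059 in siTAZ, against 2004, 1989 and 2046 in siNT (log2 fold change -0.93 with SE 0.05, limma adjusted p = 2.2e-10), a level 1.90-fold lower in siTAZ. UQCC3, an assembly factor of complex III, had 1040.1, 924 and 974 in siTAZ, against 1696, 1847 and 1813 in siNT (log2 fold change -0.87 with SE 0.06, limma adjusted p = 2.5e-09). FMC1, which supports assembly of the complex V head, had 140.3, 122 and 129.6 in siTAZ, against 308, 376 and 364 in siNT (log2 fold change -1.41 with SE 0.10, limma adjusted p = 5.5e-09), the largest fall of the list. None of the 3 overlapped between groups.

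Of 25 genes that copy, transcribe or process the mitochondrial genome, 13 (52.0%) fell and 2 (8.0%) rose (median -0.19). LRPPRC, which stabilises mitochondrial messages, had 10172, 11442 and 11818 in siTAZ, against 14614, 13797 and 13981 in siNT (log2 fold change -0.35 with SE 0.05, limma adjusted p = 3.7e-05). PNPT1, an RNA-degrading exonuclease, fell too (-0.33, limma adjusted p = 6.3e-05). FASTK, which is known to be required for the MT-ND6 message, rose, with 4778, 4403 and 4309.6 in siTAZ, against 3096, 3501 and 3502 in siNT (log2 fold change 0.42 with SE 0.06, limma adjusted p = 8.6e-06), in libraries where MT-ND6 was lower. Its part in the MT-ND6 result was not tested.

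Among 10 of 11 listed regulators of respiratory gene transcription that were in the deposited table, 5 (50%) fell and 3 (30.0%) rose (median -0.16), where the share of rises was close to the 28.3% of all genes. NRF1 had 718, 720.5 and 745 in siTAZ, against 923, 929 and 930.5 in siNT (log2 fold change -0.35 with SE 0.06, limma adjusted p = 7.3e-05) and ESRRA, an orphan nuclear receptor, had 5009, 4337 and 4288 in siTAZ, against 5392, 6028 and 6046 in siNT (log2 fold change -0.36 with SE 0.06, limma adjusted p = 9.9e-05). Neither overlapped. GABPB2, a partner of the ETS factor GABPA, was higher, with 351, 309 and 363 in siTAZ, against 186, 199 and 192 in siNT (log2 fold change 0.82 with SE 0.09, limma adjusted p = 8.5e-07). The part of these regulators in the levels of the respiratory genes was not tested.

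Coenzyme Q carries electrons to complex III, and of the 17 genes of its synthesis and of the enzymes that feed it 3 (17.6%) fell and 5 (29.4%) rose (median -0.05), a share of rises close to that of all genes. COQ7, a hydroxylase of the pathway, fell (387 ± 6.49 in siTAZ and 708 ± 9.6 in siNT, SD, n = 3 each, log2 fold change -0.87 with SE 0.07, limma adjusted p = 8.6e-09). COQ8B, an atypical kinase-like protein, rose (0.40, limma adjusted p = 1.8e-05), and ETFA, an electron carrier from fatty acid oxidation, fell (-0.30, limma adjusted p = 2.6e-05). Of 11 genes for cristae and cytochrome c handling, 4 (36.4%) fell and 1 (9.09%) rose (median -0.17), a count of calls that was 2 without siTAZ replicate 2, 3 without siNT replicate 1 and 3 without siNT replicate 3. CHCHD2 fell (2558 ± 108 in siTAZ and 3065 ± 96.9 in siNT, SD, n = 3 each, log2 fold change -0.26 with SE 0.05, limma adjusted p = 2.9e-04), while its close relative CHCHD10 rose (5772 ± 456 in siTAZ and 4728 ± 417 in siNT, SD, n = 3 each, log2 fold change 0.29 with SE 0.06, limma adjusted p = 0.0011). OPA1, the inner membrane fusion GTPase, fell slightly (-0.15, limma adjusted p = 0.019), a call lost under total count scaling (0.13), without siTAZ replicate 2 (0.063) and without siNT replicate 1 (limma adjusted p = 0.075).

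The lean towards lower levels was also found outside the respiratory chain. Of 75 mitochondrial ribosomal protein genes, which make the 13 mitochondrial proteins, 46 (61.3%) fell and 3 (4.0%) rose, with a median of -0.22. Of 77 cytosolic ribosomal protein genes 57 (74.0%) fell and 3 (3.90%) rose, with a median of -0.20. The respiratory chain genes, at 46.9% and -0.14, had a lower share of falls and a smaller median than either, and the differences between the families were not tested.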

How the data were processed

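Poly(A) RNA of 3 siTAZ and 3 siNT samples of CAOV2 cells was sequenced with a stranded kit from 1 µg of total RNA, per the labels' protocols. FastQC, HISAT2, HTSeq, DESeq2 and the build hg19 are named by the submitters' processing notes. Of versions, annotation, strand setting and gene filter, nothing is given in the sources used here. Each deposited value is a signal: gene reads divided by 1 size factor per library (0.828 to 1.17). Within each library 100% of the values gave whole reads (tolerance 0.001 of a read) once multiplied by that factor, so the reads could be recovered. Libraries correlated across genes on the log2 scale at r = 0.992 to 0.995 within groups and 0.972 to 0.975 between groups.

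Names came from a gene name table (16662 genes) and GENCODE 29 (81), and 468 genes stayed unnamed. Limma 3.58.1 (R 4.3.3) was fitted with an intensity trend to log2(value + 1) of 17204 genes whose mean was 1 or more. Group was the only term, and p-values were adjusted by Benjamini-Hochberg (threshold 0.05). Fold changes are siTAZ over siNT on that scale, which understates those of low genes. With 3 libraries a group, p-values measure the spread between these libraries, which may be partly technical. Alternatives were pseudocounts of 0.5 and 10, no filter, a filter of 1 CPM in 3 libraries, edgeR 4.0.16, DESeq2 1.42.0 and voom on the recovered reads, other scalings, a replicate block, and leaving out each library. In edgeR's quasi-likelihood test 4963 genes were higher and 4667 lower.

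The genes described and the lists were chosen with earlier results of these data known. Named are the 13 mitochondrial genes, core subunits, paired isoforms, the 10 largest falls and up to 10 rises called at a mean of 10 or more, and the 3 called genes of each list with the smallest adjusted p. Others are examples of a count. One gene that this rule names is not reported here, and it stays in the fits and counts. Chromosomes and median transcript lengths are from GENCODE 29. Scripts were tested on simulated data. Other tools were Python 3.11.15, pandas 2.3.3, numpy 2.4.6 and matplotlib 3.10.9.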

Additional observations from a re-analysis of the deposited data

How the results depend on the processing

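The median log2 fold change of the 96 nuclear genes stayed below 0 in each of the 17 alternatives, and no called gene among those named changed sign. It was -0.087 under total count scaling, -0.085 with mitochondrial genes left out of the totals, -0.10 under quantile normalization, and -0.16 to -0.11 when a library was left out. Nuclear rises (7) numbered 12 under total count scaling and 13 with mitochondrial genes left out of the totals, and 4 to 9 when a library was left out. Mitochondrial rises (1) numbered 0 with DESeq2, 2 under both total count scalings, 5 under quantile normalization and 0 to 3 when a library was left out, and mitochondrial falls (1) numbered 1 to 2. Calls among the complex V genes (11) numbered 7 to 13 when a library was left out. Calls among the genes for cristae and cytochrome c handling (5) numbered 2 under both total count scalings, 8 under quantile normalization and 2 to 5 when a library was left out. Under total count scaling 5561 of all genes were higher and 4046 lower, against 4874 and 4730 with the deposited scaling, and the median of all genes moved to 0.05. Over the single named genes and alternatives, 1136 values kept their call, 48 lost it and 22 gained one. The cause of these changes was not tested. The SE of the log2 fold change ran up to 0.31 among the nuclear genes, for the scarcest, so small changes of scarce genes were not detectable at this depth.

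The replicate numbers of the sample titles are shared between the groups, whereas the sample descriptions and the column names use other numbers that the groups do not share. Libraries with the same title number did not deviate together (r = -0.08, -0.02 and 0.01 across genes for numbers 1, 2 and 3). Whether they share more than a number is not known. With a replicate block, 38 nuclear genes fell and 5 rose, the genes for cristae and cytochrome c handling had 3 calls, and 4439 of all genes were higher and 4262 lower. Calls that ended with the block were those of NDUFV1 (limma adjusted p = 0.13), NDUFA10 (0.12), UQCRFS1 (0.083), COX7A2L (0.11), ATP5MC3 (0.083) and OPA1 (0.081) among the named genes. No library deviated most like the library of the other group with its own number.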

Other observations

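The deposited table holds divergent transcripts, which start beside a gene and run away from it, for COX10 and NDUFA6, and both moved against their gene. They were singled out after their values were seen. COX10-DT had 61.3, 81.7 and 89.6 in siTAZ, against 142, 140.0 and 139 in siNT (log2 fold change -0.87 with SE 0.14, limma adjusted p = 6.5e-05), with every siTAZ library below every siNT library, while COX10 was higher in siTAZ (log2 fold change 0.21). NDUFA6-DT had 54.0, 44.1 and 46.9 in siTAZ, against 30.4, 24.6 and 32.6 in siNT (log2 fold change 0.71 with SE 0.20, limma adjusted p = 0.0051), with every siTAZ library above every siNT library, while NDUFA6 was lower (log2 fold change -0.48). Both transcripts were scarce next to their genes, and the difference within each pair was not tested.

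Transfer RNAs of the mitochondrial genome were captured at low levels. Of those in the deposited table only MT-TV passed the test, where 55.8% of all genes tested did. It was singled out after its values were seen, and the log2 fold changes of the others had either sign. MT-TV, the valine transfer RNA between the ribosomal RNA genes, had 28.1, 26.6 and 30.7 in siTAZ, against 47.1, 39.5 and 42.3 in siNT (log2 fold change -0.58 with SE 0.19, limma adjusted p = 0.017) and did not overlap, while MT-TL1, next to MT-RNR2 on its other side, had 281 ± 38.7 in siTAZ and 258 ± 40.2 in siNT (SD, n = 3 each) and did not pass the test. TAFAZZIN, the cardiolipin enzyme gene that shares the older symbol TAZ with WWTR1, had 585, 611 and 559 in siTAZ, against 776, 834 and 790.3 in siNT (log2 fold change -0.45 with SE 0.07, limma adjusted p = 1.6e-05). Cardiolipin is the inner membrane lipid that respiratory complexes bind.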
